A study of Mus musculus with 168 samples.

Results

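Mir9-1, Mir9-2 and Mir9-3 are the mouse genes that encode the microRNA miR-9, and they are described here in the hippocampus of a Huntingtin (Htt) CAG knock-in series. The members were taken by transcript identifier and GENCODE M21 gene name, and 2 of the 3 genes, Mir9-2 and Mir9-3, had a row among the 1626 rows of the deposited tables. Mir9-1 had no row. The only row at its locus was Gm25641, an antisense microRNA gene, which is described beside the members but is not one of them.

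The study asked whether microRNA levels follow CAG length and age. All mice were of the C57BL/6 strain. WT mice, littermates of the Q20 line, had both Htt alleles unmodified, and the others were heterozygous for a knock-in of human HTT exon 1, named by its CAG repeats: Q20 with the shortest, then Q80, Q92, Q111, Q140, and Q175 with the longest. The Q175 line arose from the Q140 line by expansion of the repeat, and WT entered the fits at 7 repeats. Each genotype was profiled at 2, 6 and 10 months (2m, 6m, 10m) with 8 libraries from 8 animals. There were 21 groups, each with 4 libraries of either sex, apart from 3 female and 5 male ones in the youngest Q80 group and 5 female and 3 male ones in the oldest Q20 group. Q20 and WT were the controls.

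The depth was between 2117539 and 9099227 estimated counts, with a median of 3374648. The libraries were placed in 8 batches by age, the L code in their names and their serial numbers (L2, L3 and L4 at 2m, blocks A and B at 6m, and L6, L7 and L8 at 10m), and none of these held more than 1 age, so that age and batch cannot be told apart. At 6m, block A held all WT and Q175 libraries (16) and no others, and block B held the other 40. The L code alone does not give these batches, since block A carries the code L6 that was also used at 10m, and 1 library of block B carries L3 in place of L1. In block B 5 index numbers occur 2 times, so it may hold more than 1 run. Marker microRNAs were used to tell brain from liver, and they do not tell the hippocampus from other brain regions. The 10 neuronal ones summed to 34424 to 70061 CPM (counts scaled to a common total) in each library, whereas the liver microRNA Mir122 reached at most 2.73 CPM. The 6 choroid plexus microRNAs ran from 5443 to 40109 CPM with a median of 6791. Their highest sum lay in the neuronal range. The microRNAs of pericytes and smooth muscle had a median of 10008 CPM (8124 to 21773), and endothelial Mir126a one of 7749 CPM (5132 to 10364). The part of these other cells in the results was not tested.

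A microRNA is cut from a hairpin precursor, and bases 2 to 8 of the mature strand, the seed, pair with target messenger RNAs and lower their output. miR-9 is abundant in brain, is best known for its part in the timing of neurogenesis and neuronal differentiation, and targets among others the mRNA of the repressor REST, which itself acts on the Mir9 genes. REST enters the nucleus in greater amounts when huntingtin is mutant, which is why miR-9 is often examined in Huntington's disease. Both hairpin arms of miR-9 yield a mature strand.

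The mature sequences are shown because they decide what a short read can say about the 3 genes. In RefSeq (GRCm38.p6) the 5p strand was identical in Mir9-1, Mir9-2 and Mir9-3, and so was the 3p strand. Capitals mark the seed.

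mmu-miR-9-5p: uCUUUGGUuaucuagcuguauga
mmu-miR-9-3p: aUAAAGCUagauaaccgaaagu

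No other mature name among the 1679 in the table carried either seed. The hairpins themselves were all different. They are printed with both mature strands in capitals, so that the lower-case stretches between and around them are the only places where a read could be told apart by its locus.

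Mir9-1: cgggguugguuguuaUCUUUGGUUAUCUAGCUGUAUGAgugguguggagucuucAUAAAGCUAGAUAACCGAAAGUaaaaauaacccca
Mir9-2: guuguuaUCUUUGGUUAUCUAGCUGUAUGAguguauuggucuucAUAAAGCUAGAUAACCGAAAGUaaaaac
Mir9-3: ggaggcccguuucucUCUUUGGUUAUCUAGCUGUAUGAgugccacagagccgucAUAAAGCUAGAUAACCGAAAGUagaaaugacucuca

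The loop between the arms spanned 16 bases in Mir9-1, 14 in Mir9-2 and 16 in Mir9-3. Gm25641 lies on the opposite strand over Mir9-1, and its strands, named miR-9b, resemble the reverse complement of miR-9. All 21 bases of miR-9b-3p lie within the reverse complement of miR-9-5p. Its strands are shown to let the 2 families be compared, again with the seed in capitals.

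mmu-miR-9b-5p: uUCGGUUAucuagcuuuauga
mmu-miR-9b-3p: aUACAGCUagauaaccaaaga

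In GENCODE M21 (GRCm38) Mir9-2 lies on the plus strand at chr13:83738814-83738885 (72 bases). Its host is the long noncoding RNA gene C130071C03Rik, in which it falls in an exon of 1 and an intron of 1 of 5 transcripts. Mir9-3 lies on the plus strand at chr7:79505264-79505353 (90 bases), within an intron of 4 of the 7 transcripts of its host Mir9-3hg. Mir9-1, on the plus strand at chr3:88215598-88215686 (89 bases), falls in an intron of 5 of the 11 transcripts of Gm3764. Gm25641 covers it from the minus strand at chr3:88215589-88215696 (108 bases).

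The first question was how the identical reads had been divided among the rows. In the count table, Mir9-2 held a median of 98.5% of the summed counts of the 3 rows in the libraries outside block A (97.2% to 99.0%). Mir9-3 held 1.35% (0.888% to 1.98%) and Gm25641 0.131% (0.0476% to 1.25%). In block A the medians were 98.1%, 1.60% and 0.292%. The Mir9-2 row was thus the main holder of miR-9 reads in every library.

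The RPKM table divided them differently. RPKM multiplied by the row's length, which is proportional to the reads credited to it, was equal for the 3 rows in those libraries (with the lengths of 87, 90 and 108 bases that the deposited values of block A imply, where GENCODE gives 72 for Mir9-2), with a median of 0.9998 times the Mir9-2 value for Mir9-3 (0.9995 to 1.0001) and 0.9998 for Gm25641 (0.9984 to 1.0005). Set against Mir22 in both tables, this common value was 0.9993 times the sum of the 3 rows in the count table (0.9971 to 0.9995), against 1.015 times Mir9-2 alone (1.010 to 1.026). Mir127, Mir382, Mir411 and Mir434 as the reference gave the same 0.9993, whereas Mir128-1 and Mir486, which themselves share mature sequence with other loci, gave 0.733 and 0.501. The same reads had therefore been credited in full to each row in one table and divided in the other. This included the antisense row, so in the RPKM table of these libraries sense and antisense reads were not separated. In the 16 libraries of block A the RPKM table held the divided values, 0.0164 times the Mir9-2 value for Mir9-3.

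**Figure D1:**
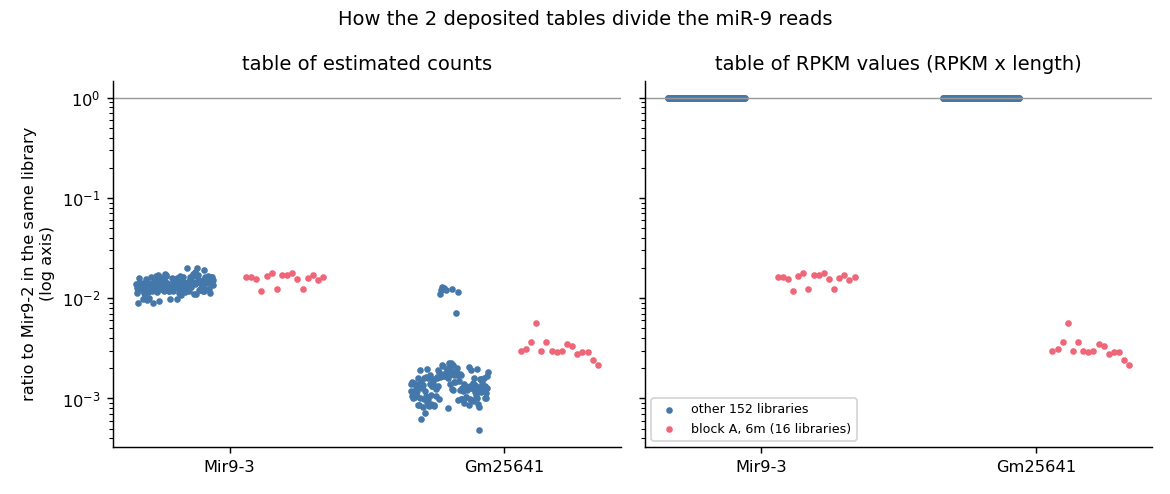
Mir9-3 and Gm25641 relative to Mir9-2 in the same library (log axis), from the table of estimated counts (left) and from RPKM multiplied by length (right). Each point is a library, blue for the libraries outside block A and red for the 16 libraries of block A. In the right panel the blue points of both rows have a median of 0.9998, and the red Mir9-3 points have a median of 0.0164.

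Because the mature strands are identical, the sum of the 3 rows is the quantity that the reads fix, and the values of Mir9-2 and Mir9-3 apart depend on how the estimates divided them. The sum is called the miR-9 total below. Reads of Mir9-1, if there were any, cannot be told apart from those of the other genes. Mir9-2 held 4.05% of all counts of the table and ranked 5 of 1626 rows. Its estimated counts ran from 85433 to 427607 per library with a median of 136619. Mir9-3 ranked 115, with a median of 1878 (1009 to 5256), and Gm25641 ranked 214, with a median of 190.2 (65.8 to 1707).

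Levels are given as CPM, estimated counts scaled to a common total of TMM-adjusted library sizes. At 10m, where the study has its oldest mice, the miR-9 total had a lowest value, median and highest value of 35341, 39678 and 43168 CPM in WT and of 36573, 41384 and 43138 CPM in Q20. Q80 gave 36777, 38934 and 45202 CPM. Q92 gave 36146, 38753 and 42652 CPM. These 4 ranges overlapped almost whole.

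The longer repeats lay in the same band. Q111 gave a lowest value, median and highest value of 37193, 40380 and 46017 CPM. Q140 gave 38488, 41087 and 42648 CPM. In Q175, the longest repeat, they were 35934, 39085 and 43611 CPM, inside the range of the Q111 and WT libraries together.

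Group means at 10m ran from 39152 ± 2451 CPM (SD, n = 8) in Q92 to 41248 ± 3417 CPM in Q111. Ordered by mean they were Q92, Q175, Q80, WT, Q140, Q20 and Q111. None of the 6 steps between neighbours in that order exceeded the pooled SD within groups of 2604 CPM, and the order did not follow repeat length. Steps between sorted means are small by construction, and the SD is that of single libraries. Such steps therefore do not show that the means are equal.

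At 2m the 56 libraries held 36651 to 48769 CPM with a median of 42433. Means ran from 41674 ± 2685 CPM in Q92 to 43637 ± 3290 CPM in Q80, and all 6 steps between neighbours were again below the pooled SD of 2808 CPM. WT libraries at 2m were the most tightly grouped of the 21 groups, between 39646 and 44053 CPM with a coefficient of variation of 3.05%.

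The spread was larger at 6m, where the libraries ran from 31303 CPM (WT F1) to 54189 CPM (Q140 F3). Here the level moved with the library block. Block A had a median of 37577 CPM (31303 to 44838, 16 libraries) and block B of 41649 CPM (35806 to 54189, 40 libraries). Its part in the group values was not tested, since only Q175 and WT were in block A.

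In block A at 6m, WT gave a lowest value, median and highest value of 31303, 38815 and 44584 CPM, and Q175 gave 34020, 36468 and 44838 CPM. These 2 groups covered nearly the same range. In block B, Q20 gave 38101, 40041 and 48023 CPM, and Q92, the highest group, gave 40215, 47383 and 50419 CPM. Means over all 7 groups ran from 37684 ± 3447 CPM in Q175 to 46034 ± 4201 CPM in Q92, a ratio of 1.22. Each of the 6 steps between neighbours was below the pooled SD of 4158 CPM, which does not show equal means. The same held for Gm25641 at 6m, with a ratio of 3.24 between its highest and lowest group means.

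**Figure D2:**
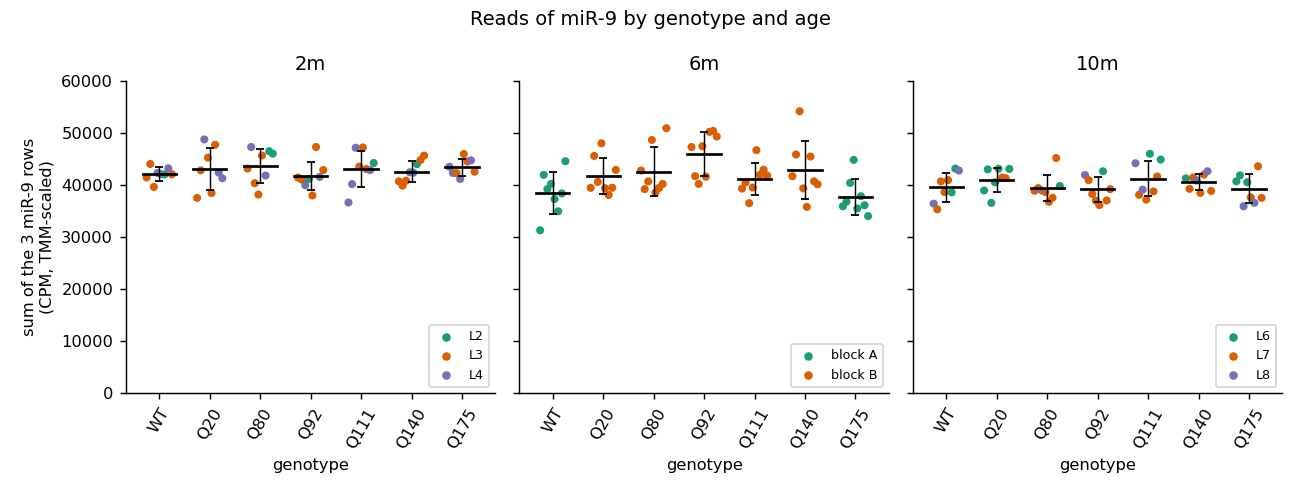
Sum of the 3 miR-9 rows in CPM for each library, by genotype and age, coloured by batch. Lines are group means and bars the SD of 8 libraries. The libraries of 2m lie between 36651 and 48769 CPM, and at 6m the WT and Q175 groups, both block A, sit lowest with means of 38494 and 37684 CPM.

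Mir9-3 was far lower and looser. At 2m its libraries ran from 356 to 766 CPM with a median of 535. At 6m they ran from 379 to 739 CPM with a median of 571, and at 10m from 399 to 772 CPM. The genotype means lay between 519.5 ± 50.1 CPM (Q140 at 2m) and 606.8 ± 83.4 CPM (Q20 at 10m).

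In Q175 at 10m Mir9-3 had a lowest value, median and highest value of 399, 605 and 692 CPM, against 408, 599 and 649 CPM in WT and 504, 609 and 772 CPM in Q20. The 3 groups overlapped. At each age all 6 steps between neighbouring genotype means were below the pooled SD, which again does not show equal means.

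Within groups, the SD of the miR-9 total on the log2 scale was 0.11, and 5.96% of the 470 rows tested had a smaller one (median over all rows 0.28). Among the 20 most abundant other rows the median was 0.12. For Mir9-3 the SD was 0.21 and for Gm25641 0.64. The miR-9 total was thus measured with one of the smaller spreads in the table, at 8 animals a group.

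The main comparison tested repeat length as a number in the 56 libraries of each age, with sex and batch in the fit. No Mir9 row passed the threshold of an adjusted p under 0.05 for repeat length at any age. A slope is the log2 change per 100 repeats, from edgeR with Benjamini-Hochberg adjustment over 470 rows. Of Mir9-2 and Mir9-3, 0 of 2 were called at 2m, against 0.213% of all rows, 0 of 2 at 6m, against 1.28%, and 0 of 2 at 10m, against 11.1%. With an unadjusted p under 0.05 the count was also 0 of 6 tests, and DESeq2 called 0 of 6.

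For the miR-9 total the slope was 0.01 at 2m (SE 0.02, adjusted p = 0.987), with a 95% interval of -0.04 to 0.06. At 6m it was -0.0046 (SE 0.03, adjusted p = 0.975), with an interval of -0.07 to 0.06. The narrowest estimate came at 10m, where the slope was -0.00075 (SE 0.02, adjusted p = 0.984) and the interval -0.04 to 0.04. In linear terms that interval spans a 2.68% fall to a 2.65% rise per 100 repeats. A miss of the threshold does not show that the level is the same, but larger slopes than these lie outside the intervals.

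Mir9-2 alone gave slopes of 0.02, 0.0021 and -0.0026 at 2m, 6m and 10m (SE 0.02, 0.03 and 0.02, adjusted p = 0.988, 0.978 and 0.950). Mir9-3 gave -0.05, -0.04 and -0.0024 (SE 0.05, 0.04 and 0.04, adjusted p = 0.988, 0.827 and 0.974). Its 95% intervals were wider, from -0.16 to 0.05 at 2m and from -0.13 to 0.05 at 6m. Combined over 6m and 10m, where Z values were summed, 0 of 2 members were called against 14.9% of all rows. DESeq2 also called 0 of 2, and 0 of 2 had an unadjusted combined p under 0.05. The mean slope of the miR-9 total over these ages was -0.0027 (95% interval -0.04 to 0.03, adjusted p = 0.929).

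Slopes within single batches scattered around 0. For the miR-9 total they were 0.07, 0.02 and -0.02 in the batches of 2m with 6, 30 and 20 libraries. Block B of 6m gave 0.02. At 10m the batches of 16, 30 and 10 libraries gave 0.03, -0.01 and -0.04. Each 95% interval included 0.

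The next comparison set each expanded allele against Q20 and WT in 1 fit per age. Over these 15 comparisons, 0 of 30 tests of Mir9-2 and Mir9-3 were called by edgeR. The count at an unadjusted p under 0.05 was 0 of 30, and DESeq2 called 0 of 30. Over all 470 rows, 0.213% were called for Q111 at 2m, 2.55% for Q175 at 6m and 14.9% for Q175 at 10m, and 0% in the other 12 comparisons.

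For Q175 at 10m, where most other changes were called, the miR-9 total differed from the controls by -0.03 on the log2 scale (SE 0.03, 95% interval -0.10 to 0.04, adjusted p = 0.673). Mir9-2 gave -0.04 and Mir9-3 -0.02. The largest difference of the miR-9 total in either direction was for Q92 at 6m, at 0.12 (SE 0.06, interval -0.0054 to 0.25, adjusted p = 0.798). Q92 shares its block with Q20 and not with WT. With block B divided in the batch term where its index numbers restart (23 and 17 libraries, with medians of the miR-9 total of 40485 and 45872 CPM), the difference was 0.13 (interval 0.01 to 0.25, adjusted p = 0.688). Without the batch term the same difference was 0.19 and passed the threshold (adjusted p = 0.0468). The other differences of the total ran from -0.03 to 0.04.

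**Figure D3:**
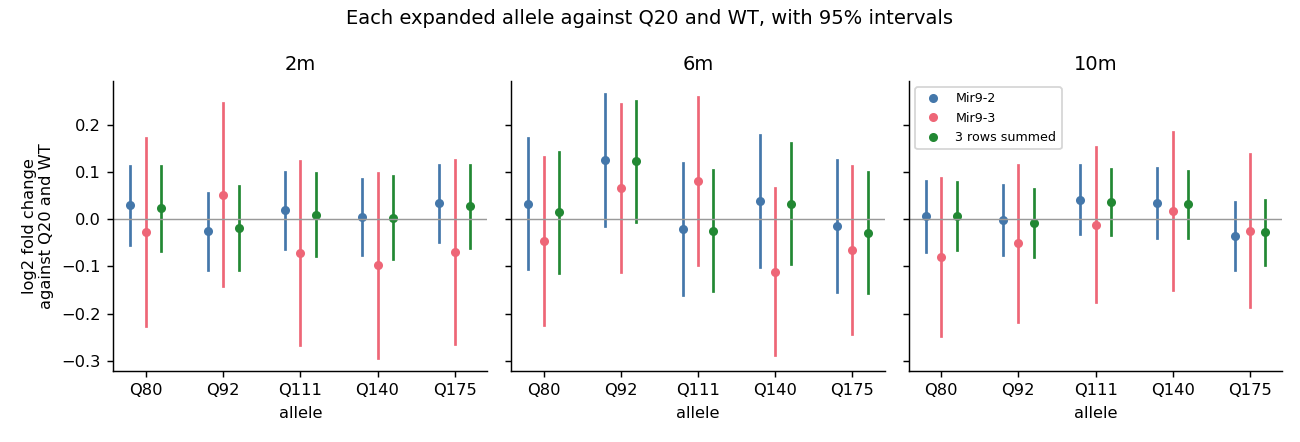
Log2 fold change of each expanded allele against Q20 and WT at 2m, 6m and 10m for Mir9-2, Mir9-3 and the sum of the 3 rows, with 95% intervals from edgeR. Intervals are widest for Mir9-3, and every interval drawn includes 0, that of the sum for Q92 at 6m reaching down to -0.0054.

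Sex was examined next. Males and females differed by 0.05 in the miR-9 total at 2m (male minus female, SE 0.03, adjusted p = 0.534), by -0.01 at 6m (SE 0.03, adjusted p = 0.966) and by 0.04 at 10m (SE 0.02, adjusted p = 0.486). For Mir9-2 and Mir9-3, 0 of 2 were called at each age, against 0.426% of all rows at 2m and 0% at 6m and 10m. The unadjusted p was under 0.05 in 0 of 6 tests. DESeq2 was not run on sex or on the products that follow.

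A product term asked whether the slope on repeat length differed between sexes. It did not pass the threshold for either member at any age (0 of 6 tests, also 0 of 6 at an unadjusted p under 0.05), against 0% of all rows at 2m, 0.213% at 6m and 1.06% at 10m. The slopes at 10m and 6m were compared in the same way. The slope of Mir9-2 differed by 0.0044 (10m minus 6m, 95% interval -0.08 to 0.09) and that of Mir9-3 by 0.05 (-0.08 to 0.17), with 0 of 2 called against 0.638% of all rows and 0 of 2 at an unadjusted p under 0.05.

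The ratio of Mir9-3 to Mir9-2 tells whether the 2 rows moved apart. The log2 ratio was -6.28 ± 0.23 at 2m, -6.16 ± 0.22 at 6m and -6.11 ± 0.20 at 10m (SD over 56 libraries). Its slopes per 100 repeats were -0.07 (SE 0.05), -0.04 (SE 0.05) and -0.00024 (SE 0.05). Permutation of genotype labels within batch and sex, 2-sided with 100000 draws, gave p = 0.156, 0.387 and 0.996, adjusted over 9 tests to 0.350, 0.577 and 0.996.

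Across libraries the 2 rows varied together only weakly. After removal of the mean of each batch and genotype, Pearson's r was 0.24 (permutation p = 0.00958, adjusted over 3 pairs 0.0287) and Spearman's rho 0.19 (permutation p = 0.0394, adjusted 0.0972) over 159 libraries, 9 that stood alone in their batch and genotype being left out. Without the 2 libraries farthest from the median, r was 0.23. By age r was 0.35 at 2m, 0.29 at 6m and 0.01 at 10m. Within batches it ran from -0.30 to 0.68 and was called only in L3 of 2m (0.53, adjusted permutation p = 0.0427), so the relation did not hold throughout. In that batch Spearman's rho was 0.39 and was not called (adjusted permutation p = 0.185). Gm25641 gave r of 0.07 with Mir9-2 and -0.03 with Mir9-3 (adjusted permutation p = 0.734 for each). Within block A its r with Mir9-2 was 0.69 (adjusted permutation p = 0.00783). As the rows share reads, these are statements on the estimates as much as on the genes.

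Gm25641, the row over the Mir9-1 locus, behaved differently at 6m. At 2m its libraries ran from 27.3 to 82.1 CPM and at 10m from 21.5 to 77.3 CPM. At 6m they ran from 36.5 to 585 CPM. In block B, 8 of 40 libraries held 288 to 585 CPM and the next highest 103 CPM, so that these 8 stood apart. They were not spread over the block. All 8 were among the first 10 libraries by serial number, and the other 2 of those 10, a Q20 and a Q92 library, were the lowest of the block at 36.5 and 47.5 CPM. The 30 libraries after them held 49.1 to 103 CPM.

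The high libraries were 3 of Q111, 2 of Q140, 2 of Q92 and 1 of Q80. As only 1 Q20 library lies among the first 10, genotype and place in the series cannot be told apart in this count. The 8 amounted to 0.691% to 1.25% of the miR-9 total of their library. The gene Gm25641 is antisense to miR-9, but whether the reads credited to it in these libraries are sense or antisense cannot be read from the tables.

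The slope of Gm25641 at 6m was 0.58 (SE 0.26, 95% interval 0.05 to 1.104, adjusted p = 0.288 by edgeR), and within block B 1.37 (SE 0.50), in fits that take block B as 1 batch. Without the first 10 libraries of block B the slope was 0.12 (SE 0.07, adjusted p = 0.510), and with block B divided where its index numbers restart 0.42 (SE 0.23, adjusted p = 0.373). The difference from Q20 and WT at 6m was 1.67 for Q111 (SE 0.53, adjusted p = 0.550), 1.405 for Q140 (SE 0.52, adjusted p = 0.779) and 1.09 for Q92 (SE 0.52, adjusted p = 0.808). None of these was called. Without the first 10 libraries they were 0.0034, -0.06 and 0.05. The cut at 10 was placed after the Gm25641 values were seen, and it removes all 8 high libraries. Smaller values were therefore built into that cut, and no conclusion is drawn from them. At 2m and 10m the slopes were -0.11 and -0.06.

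**Figure D4:**
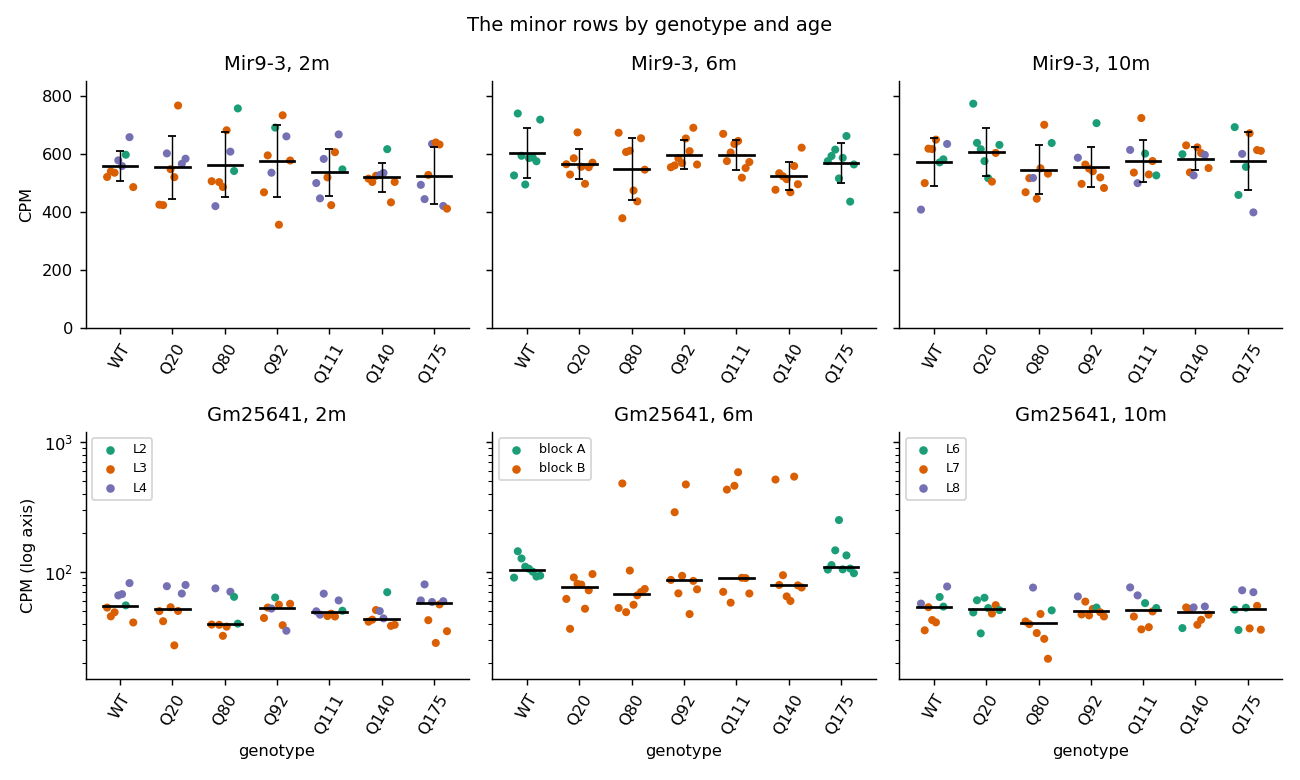
CPM of Mir9-3 (top, linear axis) and Gm25641 (bottom, log axis) for each library by genotype and age, coloured by batch. Lines are means with SD bars for Mir9-3 and medians for Gm25641. Mir9-3 stays between 356 and 772 CPM, and 8 block B libraries of Gm25641 at 6m lie at 288 CPM or above.

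The rows whose levels ran most alike with the miR-9 total, after the same removal of batch and genotype means over all libraries, were Mirlet7i (r = 0.67), Mir30a (0.63), Mir181d (0.62), Mir582 (0.61) and Mir488 (0.61). The same 5 led for Mir9-2, with r of 0.68, 0.64, 0.63, 0.60 and 0.60. The lowest was Mir22, at -0.52. These points share library depth and composition, and no test was made.

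For Mir9-3 the highest correlation was 0.27, with Gm25956, a row of 3.85 CPM on average, and the other 4 were between 0.23 and 0.24. Such weak values single out no row. For Gm25641 they were Mir16-2 (0.53), Mir154 (0.53), Mirlet7a-2 (0.50), Mir29c (0.41) and Mir331 (0.40). Mir16-2 and Mirlet7a-2 are, like the Mir9 genes, copies of a microRNA encoded at more than 1 locus.

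To place miR-9 among other microRNAs, a list of 31 neural microRNA rows was followed, all of them tested. The list is not confined to neurons and includes Mir219a-1, Mir219a-2 and Mir338, which are markers of oligodendrocytes. At 10m 9 fell and 1 rose with repeat length, in edgeR and in DESeq2 alike, against 25 and 27 of all 470 rows. DESeq2 called 36 and 28 of all rows. The median slope of the list was -0.02, against -0.0015 over all rows. The lean was not seen at 6m, where the median was 0.01 with 18 of 31 above 0, against 0.02 over all rows. With 6m and 10m combined it was 0.00083 with 16 of 31 above 0, and 6 fell and 2 rose, against 31 and 39 of all rows. Among those that fell were Mir124a-1, a copy of the main neuronal microRNA (-0.11, SE 0.03, adjusted p = 0.00964), and Mir132 and Mir212, a pair induced by neuronal activity (-0.10, SE 0.03, adjusted p = 0.0273, and -0.14, SE 0.03, adjusted p = 0.00327). Mir218-2 fell by 0.15 (SE 0.04, adjusted p = 0.00327), and Mir135a-1 by 0.26 (SE 0.08, adjusted p = 0.0199). In bulk tissue, fewer cells of a type and less RNA per cell cannot be told apart.

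The remaining ones that fell were Mir128-1 (-0.07), Mir128-2 (-0.07), Mirlet7b (-0.08) and Mir29a (-0.09), and Mir181a-2 rose (0.10, SE 0.03, adjusted p = 0.0248). Each of the 9 fitted falls lies below the lower bound of -0.04 for the miR-9 total at 10m. The 9 were picked by their calls in these same data, so this does not set miR-9 apart from the list. The median slope of all 31 rows at 10m, -0.02, lay inside the interval of the miR-9 total (-0.04 to 0.04). Differences between the slopes were not tested. The calls depended on the Q175 libraries, as did those of the whole table. Without them 0 of 31 fell, with 2 of 31 at an unadjusted p under 0.05, and of all 470 rows 0 were called and 57 had such a p. With Q175 F1 alone left out, 5 fell. At 6m 0 of 31 were called by edgeR and 2 fell by DESeq2 (7 and 7 at an unadjusted p under 0.05), against 6 and 13 of all rows called (67 and 70). At 2m 0 of 31 were called by either tool (1 and 2), against 1 and 1 of all rows (18 and 20).

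Copies such as Mir124a-1 and Mir128-1 share their mature strand with other loci, so their own values also depend on how reads were divided. Rows of such copies are also not independent of each other in the counts of the list. The neural list and the next one were drawn up with earlier results of these data known, and their counts are not independent evidence of a direction.

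Of 11 other microRNAs of genes with a described REST binding site, 4 fell and 1 rose at 10m, against 25 and 27 of all 470 rows, and DESeq2 called 5 and 1, against 36 and 28. The 4 were Mir124a-1, Mir132, Mir212 and Mir29a, which also stand in the neural list, and Mir203 rose (0.19, SE 0.05, adjusted p = 0.0162). Mir203 is best known from skin. The median slope was -0.09, with 1 of 11 above 0, against -0.0015 over all rows, with 233 of 470 above 0. The 11 rows are not independent of each other. Mir124a-1, Mir124a-2 and Mir124a-3 are copies, and Mir132 and Mir212 belong to 1 cluster. Without Q175 0 of 11 fell, and 0 of 11 had an unadjusted p under 0.05, against 0 and 57 of all rows. At 6m 0 were called by edgeR and 2 fell by DESeq2 (4 and 5 at an unadjusted p under 0.05), against 6 and 13 of all rows called (67 and 70). At 2m 0 were called by either (1 and 1). Mir9-2 and Mir9-3, the members of this group described here, were not called at any age.

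**Figure D5:**
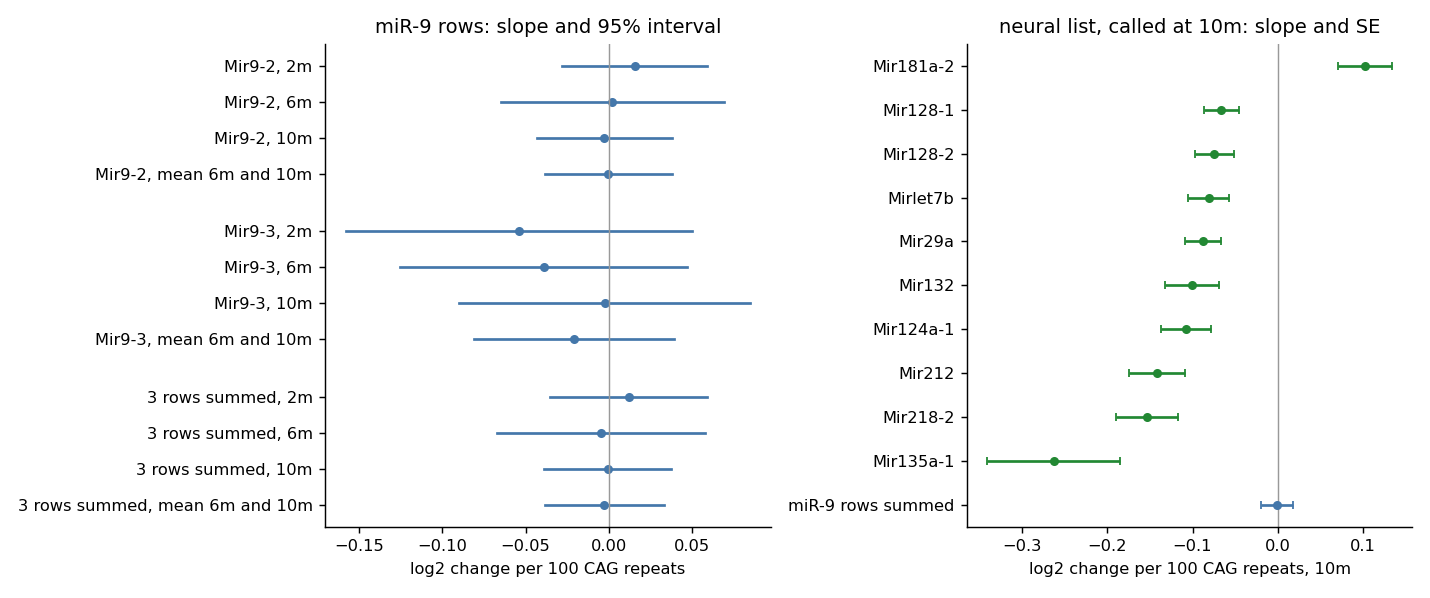
Left, slopes of Mir9-2, Mir9-3 and the sum of the 3 rows per 100 CAG repeats with 95% intervals, at each age and as the mean of 6m and 10m. Right, slopes with SE at 10m of the 10 neural list members that were called and of the summed miR-9 rows. The summed rows lie at -0.00075 at 10m, and the called members run from -0.26 (Mir135a-1) to 0.10 (Mir181a-2). Only called members are drawn, and the median slope of all 31 rows of the list at 10m was -0.02.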

How the data were processed

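RNA had been extracted with the miRNeasy kit and sequenced as short strand-specific single-end reads. According to the study's methods, clipped reads were aligned to mm10 (GRCm38) with STAR and counted per gene with HTSeq, and the submitters' processing notes name CASAVA 1.8.2. The values the authors deposited as counts are fractional, so they are estimated counts. Which program gave the fractions is not stated in the sources used. The authors also deposited RPKM values, used here only to learn how the miR-9 reads had been divided.

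Estimated counts were rounded and tested with edgeR 4.0.16 (R 4.3.3), with TMM factors and 2-sided quasi-likelihood F tests, on the 470 rows kept by filterByExpr (minimum count 10, 21 groups). P-values were adjusted by Benjamini-Hochberg over these rows and called under 0.05. The SE is the size of a log2 change divided by the root of its F statistic, and 95% intervals use it. Fits held sex and batch as terms, with block B of 6m as 1 batch. DESeq2 1.42.0, other scalings, filters and subsets of libraries were alternatives. Only the edgeR fit of the slope was run on simulated counts with known slopes, and these held no sex or batch effect. A pseudocount of 0.5 CPM was used on the log scale for ratios, correlations and spread.

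Of 1626 rows, 1228 matched GENCODE M21, and the other 398 (1.38% of counts) kept their identifiers. The plan had counted 3 Mir9 rows. As Mir9-1 has none, Gm25641 took the third place in sums, a choice made after the tables were seen. The named rows are the Mir9 genes, the 5 rows most correlated with each, and the members of the lists called. The members and lists were chosen with earlier results of these data known. The methods describe 8 sequenced animals per genotype and age. Totals per library limit the precision for rare rows most.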

Additional observations from a re-analysis of the deposited data

Results flagged for a closer look

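In 84 sets of 8 libraries (4 quantities in 21 groups), 6 values stood apart from the other 7 of their group by a gap above Dixon's critical value, which chance alone exceeds in about 1 in 20 groups. The high miR-9 total of Q80 M3 at 10m (45202 CPM, next 39817) is the same library as the high Mir9-2 value (44648 CPM, next 39130). Mir9-3 was high in Q92 M2 at 10m (705 CPM, next 587). Gm25641 was high in Q80 F2 at 6m (480 CPM, next 103), in Q175 F4 at 6m (251 CPM, next 147) and in Q140 M2 at 2m (69.9 CPM, next 51.0).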

How the results depend on the processing

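No alternative brought Mir9-2 or Mir9-3 past the threshold, with 0 calls in every setting for repeat length, for the alleles and for 6m and 10m combined. Being near 0, the slopes of the miR-9 total changed sign in 14 of 43 alternative values and those of Mir9-2 in 14 of 46, never called. Without 1 library in turn, the slope of the total ran from 0.008 to 0.02 at 2m, -0.02 to 0.007 at 6m and -0.0096 to 0.0044 at 10m. The total of Q92 against controls at 6m was called without the batch term (0.19).

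The correlation of Mir9-2 and Mir9-3 lost its call at 2m alone (0.35), 6m alone (0.29) and 10m alone (0.0143), and within block A (0.33), block B (0.27), L4 of 2m (0.0076) and L8 of 10m (0.68), and was negative within L6 (-0.30) and L7 (-0.11) of 10m. It kept its call within L3 of 2m by Pearson's r (0.53) but not by Spearman's rho (0.39). For the neural microRNAs, the 9 that fell at 10m became 2 in females, 0 in males, 4 without the low-count filter and 0 without Q175, and 5 to 9 without 1 library in turn. For the REST list the 4 became 2, 0 and 0 in females, in males and without Q175, and 3 to 5 without 1 library. The causes were not tested, apart from the fewer samples in the subsets. The list settings and those that divide or trim block B were chosen after the data were seen.

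Replicate numbers only name animals. Deviations of same-numbered libraries correlated by 0.0072, -0.0031 and 0.0037 on average at 2m, 6m and 10m, and 10, 11 and 13 of 56 libraries resembled their own number most. With a replicate block the slopes of the miR-9 total were 0.01 at 2m, -0.0025 at 6m and 0.00082 at 10m, none called. The rows called rose from 52 to 81 at 10m. They fell from 1 to 0 at 2m, from 6 to 3 at 6m and from 70 to 63 with 6m and 10m combined. RLE factors or total counts moved no group mean by more than 1 SD. WT alone could serve as control at 6m for Q175 only, and Q20 alone for the block B alleles only.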
